A study of Mus musculus with 22 samples.

Results

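The genes described here are 40 genes of the nucleolus and of ribosome production, followed in mouse cortical neurons that received different forms of the transcription factor CREB. They were 40 of the 24490 gene entries of each expression table, found by symbol, and all 40 passed the filter on low values that left 12097 genes. Of the 40, 5 (Pinx1, Rrp1b, Tcof1, Polr1c and Pus7) were chosen because their values at 8 h were lower in neurons with mutant CREB than in neurons with wild-type CREB or GFP. The other 35 were added by function, to see whether the whole process moved with them. All 40 were drawn up with results on these libraries already known.

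The neurons came from C57BL/6 embryos of genotype Creb1-/-, taken at E16.5 of gestation and kept for 7 days in vitro. To silence firing, every culture received TTX (1 µM), which blocks sodium channels, and D-AP5 (100 µM), which blocks NMDA receptors. Every culture was then depolarized for 2 h with 55 mM KCl, so no unstimulated group is analysed here. A herpes simplex virus (HSV) delivered 1 of 5 proteins: the control GFP, wild-type CREB (WT), S40A CREB, S133A CREB or S40A-S133A CREB. S40A CREB lacks the glycosylation site S40, S133A CREB lacks the phosphorylation site S133, and S40A-S133A CREB lacks both of these sites. At 4 h of virus there were 2 libraries each of GFP, WT and S40A. At 8 h there were 4 libraries each of GFP, WT and S40A and 2 each of S133A and S40A-S133A. The promoter that drives the viral gene, the part of Creb1 that is deleted and the share of cells that took up virus are not given in the sources used here. Whether replicates were grown as separate cultures is unstated, so every p-value measures the spread between these libraries, which may be technical.

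Serial numbers in the deposited file names place the libraries in runs. At 4 h, replicate 1 of each group is run A and replicate 2 is run B. The 8 h libraries fall into an earlier set (runs C1 and C2), with GFP, WT and S40A replicates 1 and 2, and a later set (runs D1 and D2). The later set holds replicates 3 and 4 of those viruses and both libraries each of S133A and S40A-S133A. S133A and S40A-S133A are therefore absent from the earlier set. C1 and C2 are told apart by the replicate number alone. Levels are FPKM, fragments per length of transcript and library size, further scaled between libraries (scaled FPKM), so levels of different genes can be compared per length. Differences are on the scale of log2(scaled FPKM + 1). Read depth is unknown, since neither the labels nor the steps between low values gave it, so no counting error is attached to any value.

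Creb1 transcript, the product of the CREB viruses, was at 11.8 to 15.7 scaled FPKM in the 2 GFP libraries at 4 h and 9.59 to 14.9 in the 4 at 8 h. With WT virus it was at 246 to 251 at 4 h and 696 to 2080 at 8 h, and with S40A virus at 235 to 269 and 570 to 2310. S133A libraries were at 568 to 1840 and S40A-S133A libraries at 675 to 2140. The CREB forms thus overlapped in Creb1 level. The remaining signal in the GFP libraries cannot check the genotype, since the deleted part is not given. In their own gene content, 4 libraries stood apart, the 3 of run A and GFP 8 h replicate 2: the median of 78 ribosomal protein genes was 1.86 to 2.03 log2 units above the genes' means there, and -0.66 to -0.20 in the other 18. Over all genes tested, GFP 8 h replicate 2 correlated best with GFP 4 h replicate 1 of run A, at 0.859. Every other library reached 0.916 or more with its best partner. Whether its sample or its processing differed was not tested, and the main 8 h fit holds it. For the main counts at 8 h and the members that GFP 8 h replicate 2 moved most, values without it are also given.

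Ribosomes are built in the nucleolus. RNA polymerase I copies the ribosomal DNA into a long precursor, small nucleolar ribonucleoproteins (snoRNPs) and modification enzymes act on it while it folds, and separate assembly lines turn it into the small and the large subunit. The process is costly and follows cell growth, and in neurons it is known to respond to activity and to growth signals. CREB binds the cyclic AMP response element (CRE), and many genes of ribosome production carry the E-box, a site of the Myc family, near their start.

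Because 5 members were chosen for lower values with CREB mutants, the start sites of the members were searched for these elements. RefSeq promoter windows (build GRCm38.p6, from upstream of the start to just past it) were matched for 34 of the 40 members. Not matched were Tcof1, Fbl, Rrp12, Bop1, Rrs1 and Pinx1. The full CRE, TGACGTCA, was in 0 of 34 member windows and in 1.86% of 26994 windows of all genes and 3.51% of those of genes tested here. Its first 5 letters, TGACG, on either strand and so also inside any full CRE, were in 19 of 34 (55.9%), against 20.9% of all windows and 33.1% of the 8798 windows of genes tested. The E-box CACGTG, which reads the same on both strands, was in 6 of 34 (17.6%), against 7.23% of all windows and 10.7% of those of genes tested. The windows differ in base composition, with a median of 57.8% G and C in members, 62.0% in genes tested and 52.7% in all genes. They were also picked by different rules. For members it was the window nearest the start of the deposited gene, and for all genes and genes tested the most upstream one. The shares are thus not strictly like for like. A match describes letters in these windows and shows no binding.

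The stretches below are those of chosen members and of the most abundant member of a role that hold either element; capitals mark the matches. Stretches of 150 bases end 1 base before the start site, and the one of Pus7 spans the 30 bases from 17 to 46 after it. The match starts at -48 in Polr1c, at 29 in Pus7 and at -25 in Rrp1. Past the printed stretch, the window of Rrp1 also holds the short CRE letters at 7, 20 and 34. Nop2 holds an E-box at -60 and the short CRE letters at -18, Rrp1b holds the short letters at -105 and -83, and Ncl at -96 and -65.
Polr1c, chr17:46248046-46248195, minus strand: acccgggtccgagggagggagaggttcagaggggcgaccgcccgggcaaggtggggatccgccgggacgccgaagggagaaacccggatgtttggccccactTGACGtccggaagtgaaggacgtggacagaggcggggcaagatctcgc
Pus7, chr5:23783666-23783695, minus strand: ggcgcagcgccgCACGTGtgcgagcccggc
Nop2, chr6:125131733-125131882, plus strand: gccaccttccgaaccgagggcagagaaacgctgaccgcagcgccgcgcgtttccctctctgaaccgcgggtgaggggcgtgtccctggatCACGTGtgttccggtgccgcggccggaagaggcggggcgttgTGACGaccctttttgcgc
Rrp1, chr10:78413044-78413193, minus strand: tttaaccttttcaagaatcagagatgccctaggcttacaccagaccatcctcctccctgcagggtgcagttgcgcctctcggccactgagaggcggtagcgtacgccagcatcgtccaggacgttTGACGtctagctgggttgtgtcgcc
Rrp1b, chr17:32036012-32036161, plus strand: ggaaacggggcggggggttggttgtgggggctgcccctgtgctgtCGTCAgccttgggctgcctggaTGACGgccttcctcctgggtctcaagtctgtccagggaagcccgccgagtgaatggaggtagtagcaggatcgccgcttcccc
Ncl, chr1:86359456-86359605, minus strand: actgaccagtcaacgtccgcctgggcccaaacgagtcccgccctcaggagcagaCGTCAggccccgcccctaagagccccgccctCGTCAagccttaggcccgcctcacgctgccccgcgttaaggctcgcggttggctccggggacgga

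Pinx1 (chr14:63860312-63919859, mm10), a nucleolar protein known as an inhibitor of telomerase, showed the chosen pattern in every library. At 8 h it was at 10.3, 11.4, 10.8 and 11.3 scaled FPKM with GFP and at 10.1, 9.72, 9.43 and 11.7 with WT. With S40A it was at 8.51, 9.07, 7.12 and 9.17, with S133A at 8.73 and 8.57, and with S40A-S133A at 7.38 and 8.31. All 8 mutant libraries lay below all 8 WT and GFP libraries. The fitted difference of mutants minus WT was -0.27 (SE 0.080) and of mutants minus GFP -0.36 (SE 0.080). No test is attached to these values or to those of the next 4 genes, since they chose the genes. In these whole-culture libraries, fewer cells of a type and less RNA per cell cannot be told apart.

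At 4 h Pinx1 did not separate the viruses. It was at 11.5 with GFP, 10.8 with WT and 11.2 with S40A in run A, and at 5.09, 4.06 and 3.66 in run B. The 2 runs differed far more than the viruses did.

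Rrp1b (chr17:32036162-32062862) encodes a nucleolar protein related to a yeast factor of large subunit processing. At 8 h it was at 5.53, 5.18, 6.07 and 6.02 with GFP, at 5.11, 5.81, 5.18 and 6.48 with WT, at 4.76, 4.77, 3.92 and 4.72 with S40A, at 4.51 and 4.52 with S133A and at 3.94 and 4.76 with S40A-S133A. Again no mutant library reached the lowest WT or GFP library. At 4 h all 6 libraries fell between 4.80 and 5.29, with the 3 viruses overlapping.

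Tcof1 (chr18:60813756-60848964), the treacle protein that links RNA polymerase I to the ribosomal DNA, was at 8.19, 9.49, 7.92 and 8.93 with GFP and at 8.42, 8.54, 8.03 and 7.71 with WT at 8 h. With S40A it was at 7.41, 6.84, 7.07 and 7.07, with S133A at 7.69 and 6.96, and with S40A-S133A at 6.89 and 7.44. The highest mutant library (7.69) and the lowest WT library (7.71) almost touched. At 4 h Tcof1 was at 8.94 to 9.54 in run A and 5.97 to 6.35 in run B, whatever the virus.

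Polr1c (chr17:46243920-46248045), a subunit shared by RNA polymerases I and III, was the most abundant member of the polymerase group. At 8 h it was at 50.6, 55.1, 55.4 and 66.5 with GFP, at 51.6, 55.6, 51.5 and 61.7 with WT, at 45.4, 48.7, 42.8 and 58.8 with S40A, at 47.3 and 51.5 with S133A and at 43.6 and 55.4 with S40A-S133A. These ranges overlapped over all 8 h libraries, but within each run every mutant library was below the WT and the GFP library. At 4 h Polr1c was at 41.3 and 41.9 with GFP, 53.9 and 47.4 with WT and 47.5 and 43.5 with S40A, so that both WT libraries lay above both GFP libraries. The difference of WT minus GFP was 0.28 (adjusted p = 1.0, limma).

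Pus7 (chr5:23740165-23783711), a pseudouridine synthase, was at 6.17, 6.49, 7.26 and 6.01 with GFP and at 6.15, 5.97, 6.91 and 6.30 with WT at 8 h. With S40A it was at 5.64, 5.82, 4.79 and 5.79, with S133A at 6.03 and 5.15, and with S40A-S133A at 5.46 and 5.53. One S133A library (6.03) lay inside the WT range. At 4 h the 6 libraries were at 4.39 to 5.55, with the highest value in an S40A library.

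**Figure D1:**
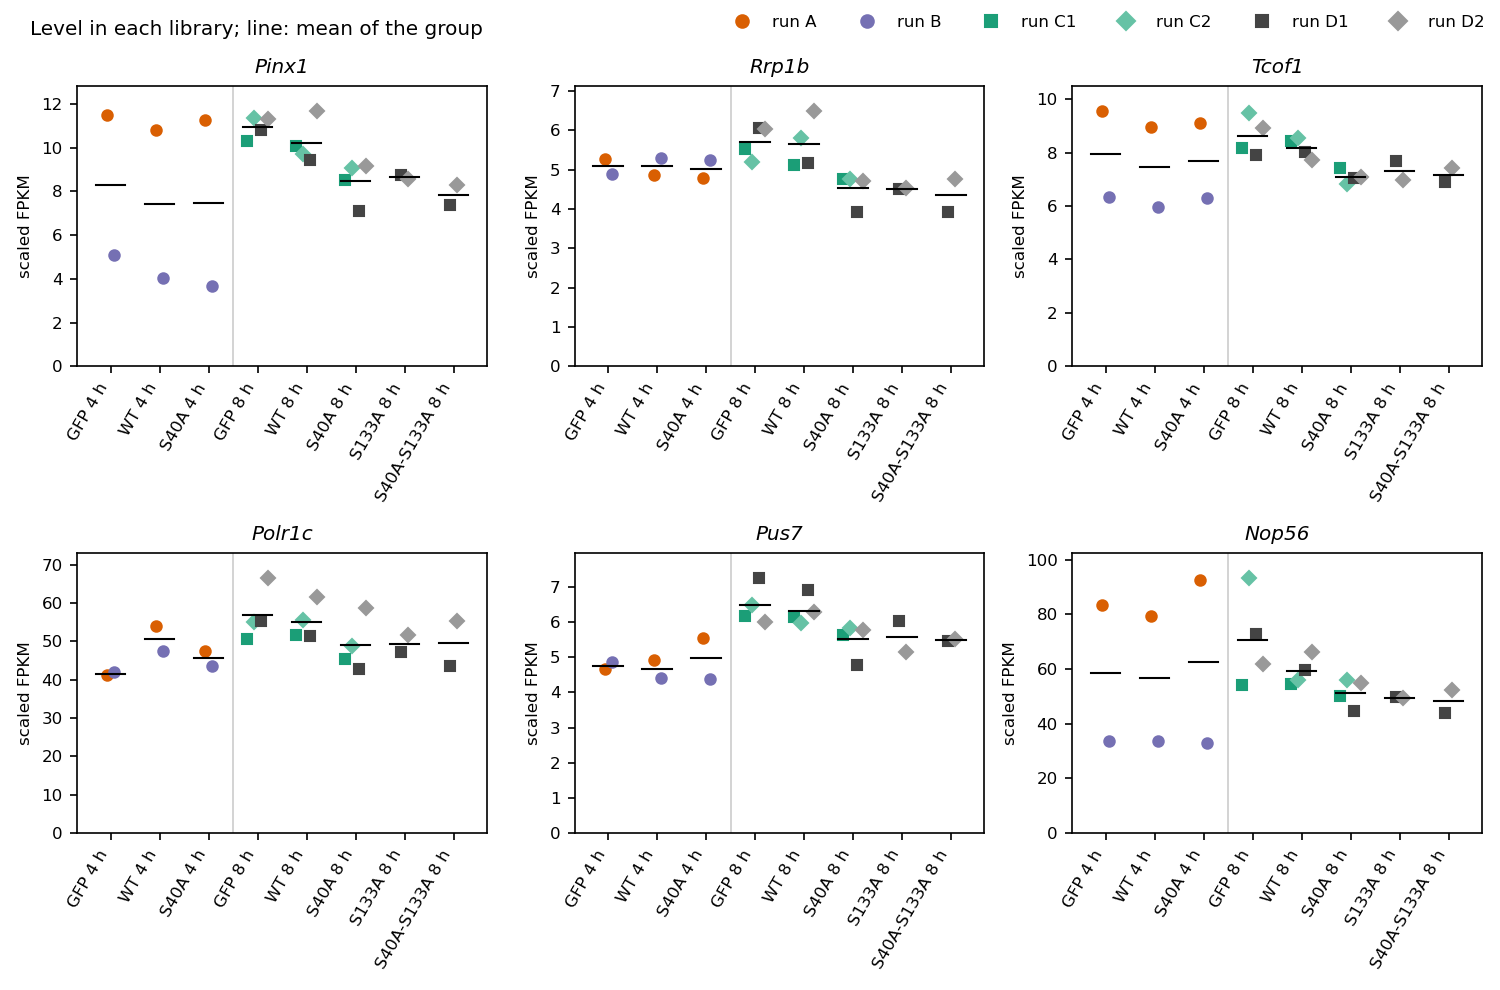
Scaled FPKM (vertical axis, from 0) of the 5 genes chosen on their values and of Nop56 in each of the 22 libraries, by virus and hours; points are libraries, shapes and colours are runs, lines are group means. Pinx1, Rrp1b and Tcof1 are lower in all 8 mutant libraries than in all 8 GFP and WT libraries at 8 h, and at 4 h the 2 runs lie far apart for Pinx1, Tcof1 and Nop56.

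Across the process the members leaned the same way but no member passed the test. In the mean of the 3 mutant forms minus WT at 8 h, 38 of 40 members were below 0, and 33 of the 35 not chosen on values, where 46.5% of all genes tested were below 0. The median difference was -0.16 over the 40 and -0.15 over the 35, beside 0.01 over all genes, with single members from -0.29 to 0.15. No member had an adjusted p under 0.05 (limma, 0 of 40; 0.0165% of all genes were called lower and 0.0165% higher). At an unadjusted p under 0.05, 14 of 40 members and 10 of the 35 were lower, where 1.48% of all genes were. The rule used this contrast for 5 members and earlier results on it were known for the rest, so these counts are a description.

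Mutants minus GFP gave like values and shares its mutant libraries with the contrast above. Below 0 were 37 of 40 members and 32 of the 35, beside 47.4% of all genes, and the median was -0.16 over the 40 and -0.15 over the 35. No member was called (0.0% of all genes were called lower and 0.0248% higher), and 13 of 40 and 8 of the 35 had an unadjusted p under 0.05, beside 2.93% of all genes. Without GFP 8 h replicate 2 the counts below 0 were again 37 and 32, beside 47.0% of all genes, the median over the 35 was -0.17, and 14 of the 35 had an unadjusted p under 0.05, beside 2.45% of all genes.

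For WT CREB minus GFP the members lay on both sides of 0. At 8 h 26 were below and 14 above 0 (49.7% of all genes were below), with a median of -0.02 and a range from -0.34 to 0.16. Without GFP 8 h replicate 2, 28 were below and 12 above 0 (50.8% of all genes were below), with a median of -0.03 and a range from -0.23 to 0.11. The number called was 0 (0.0% of all genes were called lower and 0.00827% higher) and the number at an unadjusted p under 0.05 was 0, beside 0.496% of all genes lower and 0.579% higher. No member separated all 4 WT from all 4 GFP libraries in either direction, where 0.231% of genes did so downwards and 0.265% upwards. Without GFP 8 h replicate 2 it was again 0 members, beside 0.438% and 0.537%.

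**Figure D2:**
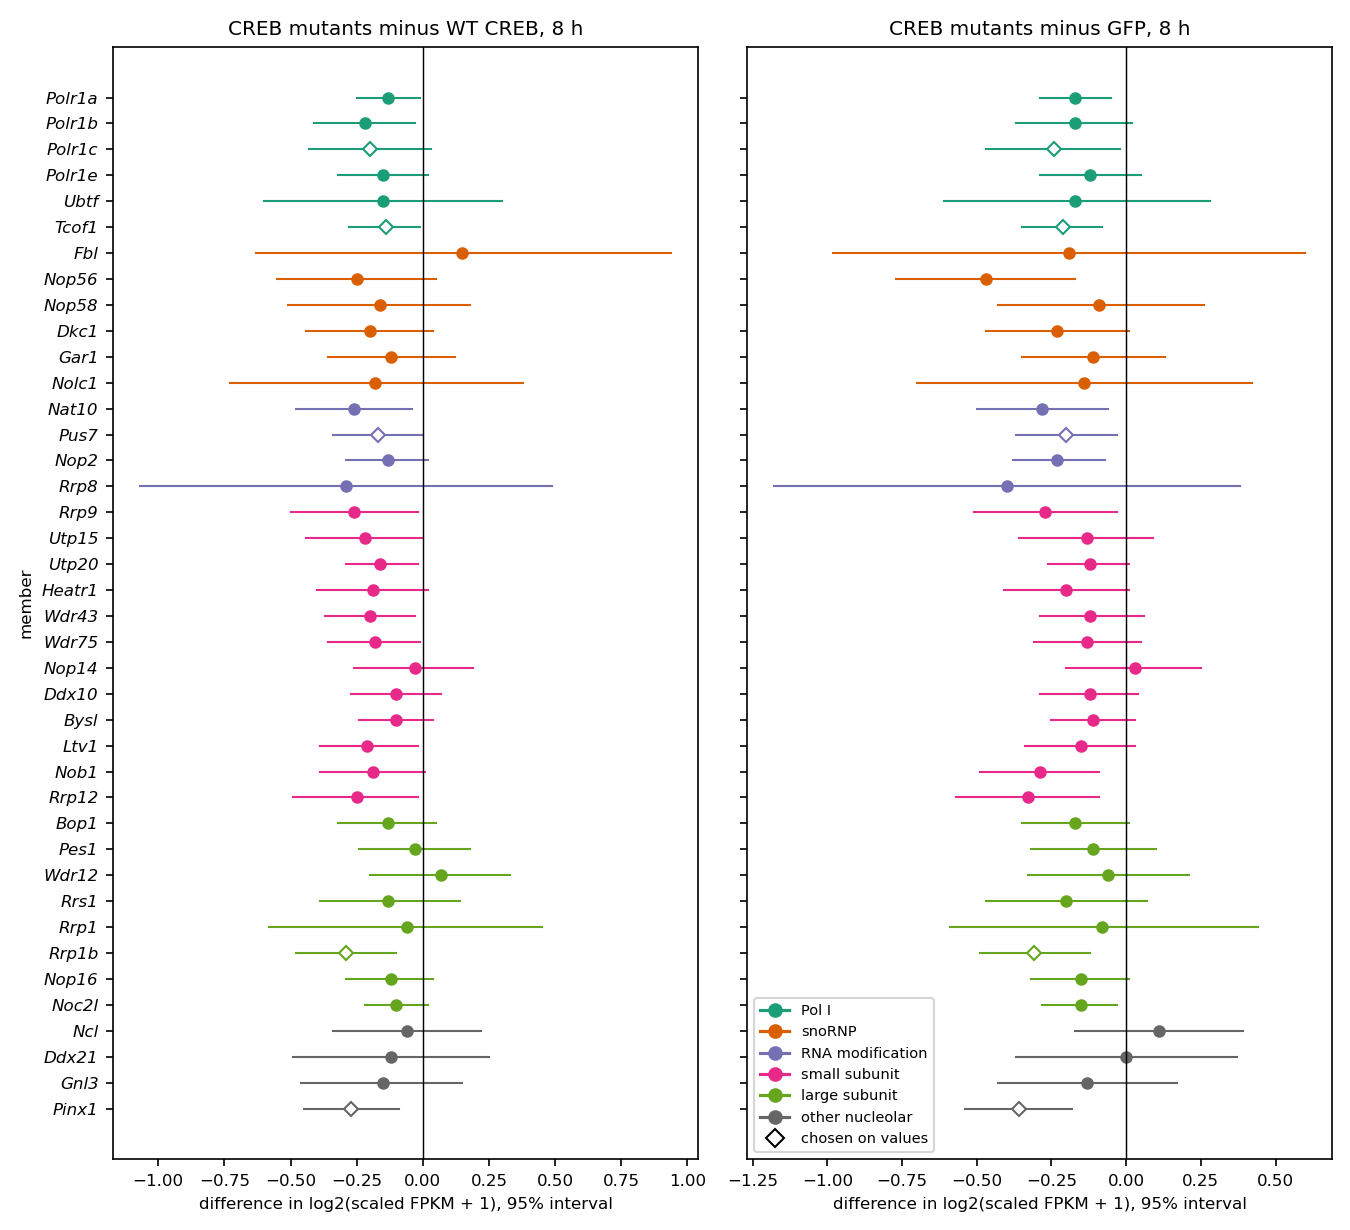
Differences in log2(scaled FPKM + 1) at 8 h, mean of the 3 mutant forms minus WT (left) and minus GFP (right), for the 40 members by role; bars are 95% intervals of the fit, open diamonds are the 5 genes chosen on values. Points lie below 0 for 38 and 37 of 40 members, and many intervals include 0.

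The RNA polymerase I group held 6 members: the subunits Polr1a, Polr1b, Polr1c and Polr1e, the upstream binding factor Ubtf and Tcof1. All 6 were below 0 in mutants minus WT, with a median of -0.15. Polr1c and Tcof1 among them were chosen for lower values, so their sign was given by the choice. Counts and medians by role include such chosen members. The large catalytic subunit Polr1a was at 8.93 to 11.1 in the 8 mutant libraries, 10.5 to 12.3 with WT and 10.8 to 12.0 with GFP, a difference from WT of -0.13 (SE 0.054, adjusted p = 1.0, limma). Polr1b differed by -0.22 (SE 0.086) and Polr1e by -0.15 (SE 0.077), with overlapping libraries.

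Ubtf, which opens ribosomal DNA for the polymerase, varied by run. At 8 h it was at 47.3, 38.8, 33.9 and 52.0 with GFP, 44.8, 51.3, 32.5 and 41.0 with WT, 31.6, 30, 36.2 and 48.7 with S40A, 30.9 and 46.5 with S133A and 31.5 and 48.8 with S40A-S133A. Run D2 exceeded run D1 for all 5 viruses, by 0.51 on average. At 4 h Ubtf was at 26.8, 33.7 and 30.3 in run A and 51.8, 50.7 and 47.6 in run B for GFP, WT and S40A.

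In the snoRNP group, 5 of 6 members were below 0 in mutants minus WT, with a median of -0.17. Nop56, a core protein of the box C/D snoRNPs and the group's most abundant member, was at 54.1, 93.3, 72.6 and 61.7 with GFP, at 54.5, 55.9, 59.5 and 66.3 with WT, at 50, 55.9, 44.7 and 54.7 with S40A, at 49.6 and 49.2 with S133A and at 43.9 and 52.4 with S40A-S133A. Within the later set all 6 mutant libraries lay below all 4 WT and GFP libraries. The difference was -0.25 from WT (SE 0.135) and -0.47 from GFP (SE 0.135, adjusted p = 0.75, limma), or -0.35 without GFP 8 h replicate 2. At 4 h Nop56 was at 79.4 to 92.6 in run A and 32.8 to 33.7 in run B.

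Fbl, fibrillarin, the methyltransferase of the same particles, was at 26.4 to 30 in the 4 libraries that stood apart and at 2.77 to 9.59 in the other 18. Its fitted difference was 0.15 from WT (SE 0.353) and -0.19 from GFP, and without GFP 8 h replicate 2 it was 0.05 and 0.16. At 8 h its mean level was 6.23 with WT and lower in each mutant form, at 5.43 with S40A, 4.4 with S133A and 5.18 with S40A-S133A. These means take no account of the set, while the fit adjusts for it over all 16 libraries at 8 h, GFP 8 h replicate 2 included. The run A libraries are not in that fit. Beyond leaving out GFP 8 h replicate 2, its part in the values was not tested.

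Nolc1, a snoRNP chaperone, was at 45.6, 32.1, 28.6 and 51.0 with GFP, 44.4, 40.6, 30 and 43.9 with WT, 28.7, 26.4, 35.5 and 49.0 with S40A, 28.6 and 50.9 with S133A and 26.5 and 46.3 with S40A-S133A at 8 h. The run again outweighed the virus, with D2 above D1 for all 5 viruses by 0.68 on average. At 4 h it was at 26.1, 30.9 and 27.0 in run A and 38.2, 39.5 and 37.2 in run B. Nop58, Dkc1 and Gar1, the other core proteins, differed from WT by -0.16, -0.20 and -0.12.

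All 4 RNA modification enzymes, the chosen Pus7 among them, were below 0, with a median of -0.22. Rrp8 was so only through 1 library in which it is listed at 0. Of the other 3, Pus7 has the middle value, -0.17. Nat10, the cytidine acetyltransferase of ribosomal RNA, was at 10.6 to 14.7 in mutant libraries, 13.3 to 16.1 with WT and 12.8 to 17.1 with GFP, and differed from WT by -0.26 (SE 0.099, adjusted p = 1.0, limma). Nop2, a cytosine methyltransferase of the large ribosomal RNA, was at 33.9, 35.2, 38.6 and 41.0 with GFP, 32.1, 32.1, 35.4 and 39.5 with WT, 30.3, 30.6, 29.8 and 37.8 with S40A, 33.4 and 34.6 with S133A and 30.1 and 35.7 with S40A-S133A. Its groups overlapped, although within each run the mutants were lower. At 4 h it was at 24.4 to 30.3, with the highest and the lowest value in S40A libraries.

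Rrp8, a methyltransferase of ribosomal RNA, was the lowest member and gave no reliable difference. It was listed at 0 in 5 of 22 libraries: GFP in run B, WT in run A, both S40A libraries at 4 h and S40A-S133A 8 h replicate 2. In the other libraries at 4 h it was at 3.79 (GFP) and 2.92 (WT). At 8 h it was at 3.83, 3.76, 5.09 and 4.94 with GFP, 3.86, 3.64, 4.52 and 3.98 with WT, 4.88, 4.02, 4.49 and 3.91 with S40A, 5.54 and 4.24 with S133A and 4.68 in the other S40A-S133A library. A listed 0 may be a failed estimate. The fitted difference from WT was -0.29 (SE 0.350), and 0.12 without S40A-S133A 8 h replicate 2. Within runs Rrp8 was lower in 8 of 16 pairs of a mutant with a WT or GFP library.

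The small subunit group, the largest with 12 members, was below 0 throughout in mutants minus WT, with a median of -0.19. At an unadjusted p under 0.05 were 7 of 12, beside 1.48% of all genes lower. Without GFP 8 h replicate 2 there were 6 of 12, beside 1.79%. Rrp9, the U3 snoRNP protein that acts in the early cleavages, was at 24.9 to 37.7 in mutants, 28.6 to 40 with WT and 31.4 to 36.3 with GFP, and differed from WT by -0.26 (SE 0.108). Rrp12, which helps export the small subunit, was at 17.9 to 27.0, 21.8 to 29.8 and 24.3 to 31.4, a difference of -0.25 (SE 0.106). Utp15, Utp20, Heatr1, Wdr43 and Wdr75, parts of the early processing complex, differed by -0.22, -0.16, -0.19, -0.20 and -0.18. Nop14 (-0.03), Ddx10 (-0.10) and Bysl (-0.10) differed least. None of the 12 was called.

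Nob1, the nuclease that makes the mature end of the small ribosomal RNA, was the group's most abundant member. It was at 31.1, 34.5, 32.2 and 38.7 with GFP, 28.8, 31.1, 33.5 and 33.9 with WT, 27.0, 31.8, 25.1 and 33.4 with S40A, 29.7 and 26.2 with S133A and 26.6 and 28.6 with S40A-S133A. Both S40A-S133A libraries lay below all 8 WT and GFP libraries. At 4 h it was at 28.7, 28.6 and 30.2 in run A and 25.3, 26.4 and 23.3 in run B for GFP, WT and S40A. Ltv1, a chaperone of late assembly, was at 8.68, 10.0, 10.7 and 10.1 with GFP, 9.22, 9.95, 10.7 and 11.4 with WT, 8.74, 8.95, 8.28 and 9.79 with S40A, 8.39 and 11.0 with S133A and 7.95 and 9.22 with S40A-S133A at 8 h, with the groups overlapping. At 4 h Ltv1 was at 9.74, 10.1 and 8.19 in run A and 6.91, 5.87 and 5.83 in run B.

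In the large subunit group, 7 of 8 members were below 0, with a median of -0.11. Rrp1b, chosen on its values, had the difference farthest from 0 (-0.29, SE 0.084). Rrp1, the relative of Rrp1b and the most abundant of all 40 members, was at 210, 198, 127 and 239 with GFP, 205, 216, 138 and 199 with WT, 157, 147, 166 and 238 with S40A, 146 and 222 with S133A and 136 and 225 with S40A-S133A. Its difference was -0.06 (SE 0.232) and its level went with the run, D2 above D1 by 0.65 on average. At 4 h it was at 180, 179 and 163 in run A and 221, 226 and 215 in run B. The relatives Rrp1 and Rrp1b thus differed in pattern, though the difference between them was not tested.

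Wdr12, which forms the PeBoW complex of 28S rRNA maturation with Pes1 and Bop1, was the other member above 0 (0.07, SE 0.121). It was at 6.12, 4.20, 6.31 and 4.89 with GFP, 5.11, 4.46, 5.63 and 4.10 with WT, 4.66, 5.51, 5.11 and 4.58 with S40A, 5.82 and 4.83 with S133A and 5.67 and 4.44 with S40A-S133A. At 4 h it was at 3.78, 4.05 and 4.22 in run A and 4.15, 4.70 and 5.41 in run B. Its partners differed by -0.03 (Pes1) and -0.13 (Bop1). Rrs1, Nop16 and Noc2l, assembly factors of the same subunit, differed by -0.13, -0.12 and -0.10.

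The remaining 4 nucleolar members, the chosen Pinx1 among them, had a median of -0.14. Ncl, nucleolin, an abundant nucleolar protein, was at 63.4, 42.2, 50.6 and 59.6 with GFP, 63.4, 69.2, 50.1 and 58.4 with WT, 53.3, 49.5, 53.0 and 62.9 with S40A, 54.9 and 62.0 with S133A and 56.0 and 63.0 with S40A-S133A. It differed by -0.06 from WT and by 0.11 from GFP, with overlapping groups. Without GFP 8 h replicate 2, the lowest GFP library (42.2), these were -0.03 and 0.01. At 4 h it was at 55.1, 57.9 and 52.9 in run A and 66.7, 73.6 and 76.4 in run B. Gnl3, nucleostemin, a GTP-binding protein of growing cells, was at 36.2, 30.4, 28.9 and 34.7 with GFP, 34.2, 37.4, 27.1 and 33.9 with WT, 27.1, 27.6, 25.3 and 35.5 with S40A, 27.7 and 34.5 with S133A and 23.0 and 33.7 with S40A-S133A. At 4 h Gnl3 was at 34.0, 45.4 and 32.9 in run A and 29.9, 32.4 and 30.6 in run B, highest with WT in both. The helicase Ddx21 differed by -0.12 from WT and 0.00 from GFP, or -0.06 from GFP without that library.

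The 3 mutant forms gave like medians against WT: -0.13 for S40A (38 of 40 members below 0), -0.14 for S133A (37 of 40) and -0.20 for S40A-S133A (37 of 40), where 47.2%, 46.6% and 47.1% of all genes were below 0. These 3 share the WT libraries. At an unadjusted p under 0.05, 3, 2 and 5 of the 35 members not chosen on values were lower, beside 1.4%, 0.694% and 0.868% of all genes. Without GFP 8 h replicate 2 there were 5, 4 and 4, beside 2.24%, 0.876% and 1.03%. No member was called for any form (limma), where 0.0%, 0.00827% and 0.0% of all genes were called lower and 0.0%, 0.00827% and 0.00827% higher. In the direct comparisons of S40A-S133A minus S40A and S133A minus S40A no member was called either (0.0% and 0.00827% of all genes were called lower, and 0.00827% higher in each). This does not show that the forms act alike: for Pinx1 the 95% interval of S133A minus S40A ran from -0.22 to 0.28 and that of S40A-S133A minus S40A from -0.34 to 0.16.

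The 3 genes whose groups separated fully were among the 5 chosen for it. All 8 mutant libraries lay below all 8 WT and GFP libraries for 3 of 40 members (Tcof1, Rrp1b and Pinx1) and for 0 of the 35, beside 0.0496% of all genes, and the same 3 genes separated without GFP 8 h replicate 2, beside 0.0827%. In the later set alone 9 of 40 separated, 6 of them among the 35 (Polr1b, Nop56, Utp15, Utp20, Heatr1 and Rrp12), beside 2.17% of all genes. In the earlier set, with 2 S40A against 4 other libraries, 19 of 40 and 14 of the 35 separated downwards, beside 10.2% of all genes. Those 14 were Polr1a, Ubtf, Fbl, Nolc1, Nat10, Nop2, Rrp9, Nop14, Bop1, Pes1, Rrp1, Noc2l, Ddx21 and Gnl3, none of which is among the 6 of the later set. Without GFP 8 h replicate 2 the earlier set gave 24 of 40 and 19 of the 35, beside 23.4% of all genes, and Polr1b and Utp20 then separated in both sets.

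By form, and over the 35 alone, all 4 S40A libraries lay below all WT and GFP libraries for 0 members (0.198% of all genes). Both S133A libraries did so for 3 (Nop56, Nop16 and Noc2l; 1.12% of all genes), and for 5 without GFP 8 h replicate 2 (1.55%). Both S40A-S133A libraries did so for 2 (Nop56 and Nob1; 1.19% of all genes).

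Within single runs the lean held but its size changed. C1 and C2 match libraries by replicate number alone, and deviations of libraries so matched correlated at -0.04 to 0.05. Their values are therefore not shown to be within-run differences. Over the 35 members not chosen on values, the median of S40A minus WT was -0.22 in run C1, -0.04 in C2, -0.10 in D1 and -0.05 in D2. Below 0 were 32, 23, 24 and 22 of the 35, beside 49.2%, 46.8%, 47.3% and 45.4% of all genes. S133A minus WT was -0.10 in D1 and -0.14 in D2, with 27 and 24 below 0 (43.4% and 48.8% of all genes). S40A-S133A minus WT was -0.21 and -0.13, with 29 and 25 below 0 (46.7% of all genes in each). Setting each mutant library against the WT and the GFP library of its run gives 16 pairs, which share libraries. Pinx1, Rrp1b, Tcof1, Polr1c and Pus7 were lower in 16 of 16, and so were Nat10, Nop2, Polr1a and Rrs1 among the 35. At the other end, Ncl was lower in 3, Nop14 in 4, and Ddx21 and Fbl in 5.

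**Figure D3:**
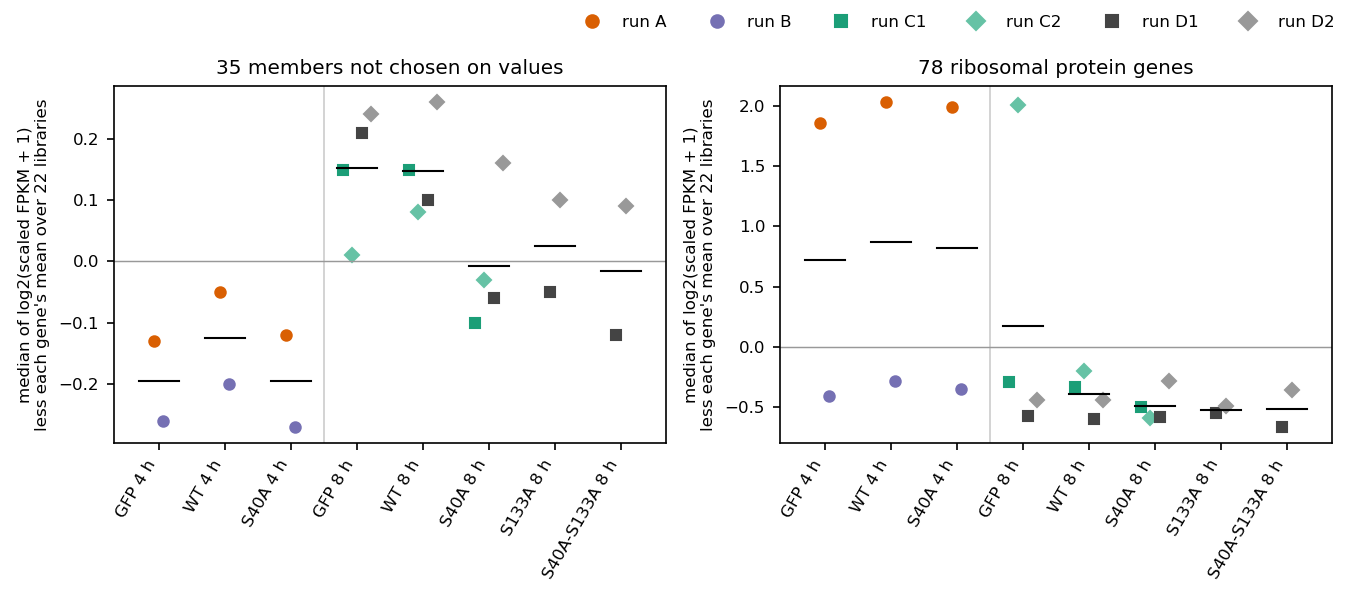
Median over the 35 members not chosen on values (left) and over 78 ribosomal protein genes (right) of log2(scaled FPKM + 1) less each gene's mean over the 22 libraries, one point per library by virus and hours, with runs by shape and colour and group means as lines. The member medians of mutant libraries reach from -0.12 to 0.16 and overlap those of WT (0.08 to 0.26) and GFP (0.01 to 0.24) at 8 h, and 4 libraries stand apart on the right.

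The 5 genes were chosen on 8 h values, and the 6 libraries at 4 h held WT, S40A and GFP. In S40A minus WT, 30 of 40 members were below 0, and 27 of the 35, beside 52.6% of all genes. The median was -0.04 over the 40 and -0.06 over the 35, beside -0.01 over all genes. No member was called (limma; 0.0413% of all genes were called lower and 0.0496% higher) and 0 had an unadjusted p under 0.05, beside 0.149% of all genes lower and 0.165% higher. No member separated the 2 S40A libraries from the 4 others downwards (1.5% of genes did) or upwards (1.36%). Differences ranged from -0.98 in Rrp8, which is listed at 0 in 3 of the 4 libraries compared, to 0.11 in Wdr12.

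WT minus GFP at 4 h was above 0 for 29 of 40 members, with a median of 0.05, and S40A minus GFP for 22 of 40, with a median of 0.01. Below 0 were 45.2% and 47.5% of all genes. Called were 0 members in each (limma; 0.0579% of all genes were called higher and 0.0331% lower in both). At an unadjusted p under 0.05 there were 0 members in each, beside 0.174% of all genes higher and 0.174% lower for WT and 0.281% and 0.207% for S40A. These fits held no run term. With the run as a block, 1 of 40 members and 0 of the 35 were higher so in WT minus GFP, beside 1.52% of all genes. Both WT libraries exceeded both GFP libraries for Polr1c, Utp15 and Rrs1, 3 of 40 and 2 of the 35, where 4.91% of all genes did so. Tested in all 22 libraries, the S40A minus WT difference at 8 h less that at 4 h was below 0 for 34 of 40 members with a median of -0.08, beside 46.8% of all genes. Called were 0 members (limma; 0.0165% of all genes were called lower and 0.00827% higher), and 0 had an unadjusted p under 0.05 (0.455% of all genes were lower so). The median rested on single libraries: without WT 4 h replicate 2 it was 0.01, without S40A 4 h replicate 1 0.02 and without S40A 4 h replicate 2 -0.16.

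Levels at 8 h and 4 h differed more than the viruses did, but the times were run apart, so hours and run cannot be told apart. Averaged over GFP, WT and S40A, 31 of 40 members were higher at 8 h, with a median of 0.23, beside 47.2% of all genes higher and a median of -0.02. Rrp12 (0.90), Rrp9 (0.74), Bysl (0.59) and Nop16 (0.52) were the farthest above, leaving out Rrp8 with its listed zeros. For Rrp12 the 4 h libraries were at 11.8 to 14 and the 8 h libraries of these viruses at 21.8 to 31.4. All 12 libraries at 8 h lay above all 6 at 4 h for 7 members (Rrp9, Utp15, Utp20, Heatr1, Bysl, Rrp12 and Nop16), beside 7.59% of all genes, and 6 of the 7, all but Nop16, belong to the small subunit group. Fbl (-1.0), Ddx21 (-0.22), Rrs1 (-0.19) and Ncl (-0.18) were lower at 8 h. The Fbl value went with the run A libraries, which stood apart: run A minus run B was 2.09 for Fbl at 4 h. In run B Fbl was at 4.87 with GFP, 5.95 with WT and 7.2 with S40A. These lie inside its 8 h range without GFP 8 h replicate 2, which was 2.77 to 9.59.

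**Figure D4:**
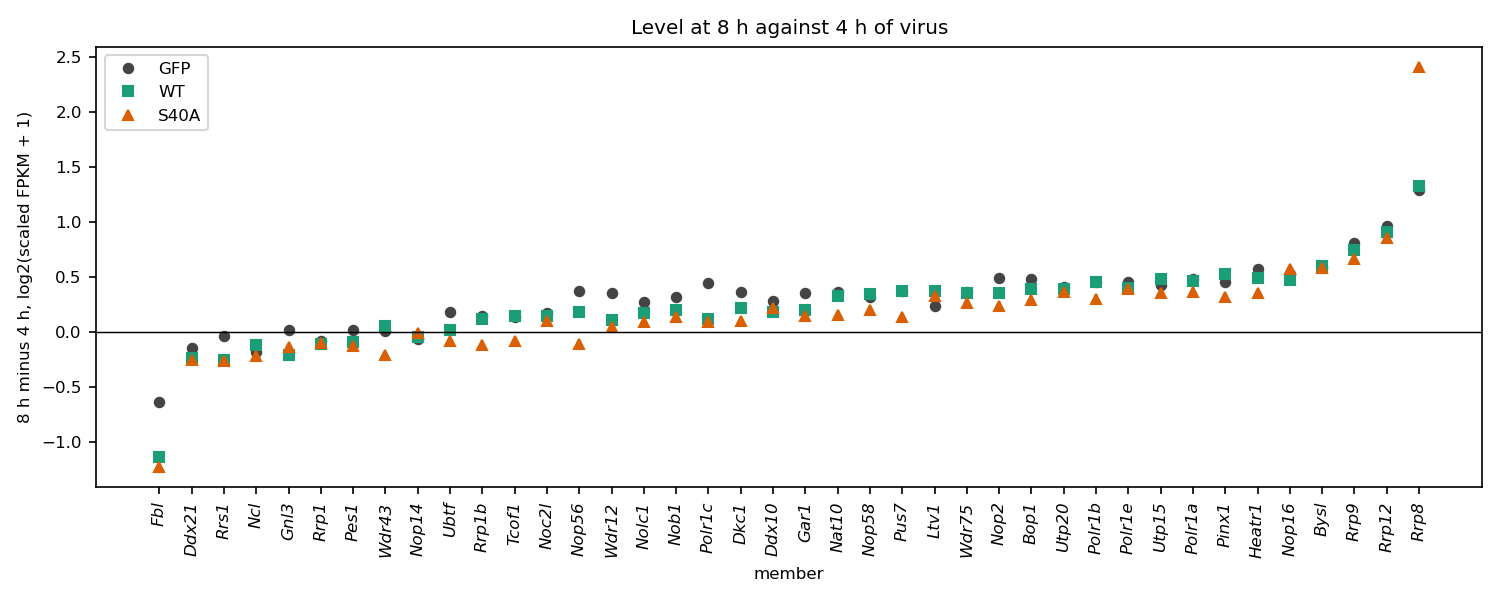
Difference in log2(scaled FPKM + 1) between 8 h and 4 h of virus for each of the 40 members, for GFP, WT and S40A, ordered by the mean of the 3. Points of the 3 viruses lie close together for most members, with Rrp12 at 0.96, 0.91 and 0.85, and Rrp8, which is listed at 0 in some libraries, at the far right.

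Other genes of the pathway were described in lists of their own, and differences between lists were not tested. In mutants minus WT at 8 h, 40 of 42 further small subunit factors were below 0 (median -0.10), 39 of 44 further large subunit factors (-0.11) and 13 of 13 genes of nucleolar structure and surveillance (-0.09). Of further polymerase I genes 7 of 11 were below 0 (-0.05), of further snoRNP genes 9 of 15 (-0.06) and of the exosome, which trims RNA, 11 of 14 (-0.08). Against GFP the median of the nucleolar structure list was -0.19, or -0.12 without GFP 8 h replicate 2. Neighbouring systems had medians near 0: RNA polymerase III with 14 of 20 below (-0.02), the Myc network with 7 of 11 (-0.01) and the mitochondrial ribosome with 15 of 30 (0.00). In these lists 0 genes were called.

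Farthest from 0 in their lists were Rpp25 (-0.44, SE 0.196), a protein of ribonucleases P and MRP, Trp53 (-0.31, SE 0.114), the p53 tumour suppressor, Rcl1 (-0.31, SE 0.162), a small subunit factor, and Skiv2l2 (-0.26, SE 0.107), a helicase of the exosome. Twistnb, a polymerase I subunit, was at -0.25, Lsg1, a GTPase of the large subunit, at -0.21 and Polr3b at -0.14. Mrpl16 of the mitochondrial ribosome was at 0.32. Zbtb17, which binds Myc and is listed at 0 in some GFP, WT and S133A libraries at 8 h, was at 1.36 (SE 1.036). All had an adjusted p of 1.0 (limma).

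The ribosomal protein genes, the products that the members assemble, depended on 1 library. In mutants minus WT 30 of 78 were below 0 with a median of 0.05, and without GFP 8 h replicate 2 there were 59 of 78 with a median of -0.07, so the direction turned. In mutants minus GFP the median was -0.52 with that library and -0.05 without it. Rpl9, the farthest from 0 against WT, was at 0.50 (SE 1.113), but its levels at 8 h were very low outside GFP. It was at 0.175 to 0.637 scaled FPKM with WT, 0.179 to 0.995 with S40A, 0.305 to 0.637 with S133A and 0.194 to 0.511 with S40A-S133A. With GFP it was at 0.505 to 247. Without GFP 8 h replicate 2 the differences from WT in this list ran from -0.66 to 0.29. Further polymerase I genes against GFP also turned, from -0.05 to 0.01.

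**Figure D5:**
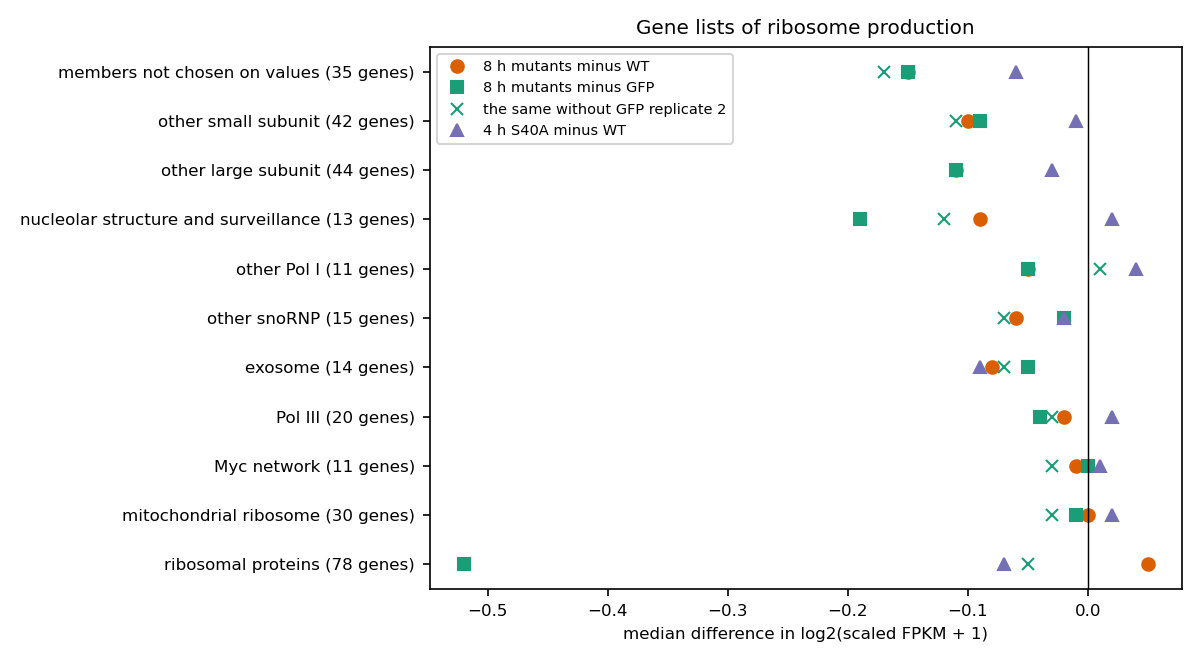
Median difference in log2(scaled FPKM + 1) of each gene list for mutants minus WT and minus GFP at 8 h, the latter also without GFP 8 h replicate 2, and for S40A minus WT at 4 h. The 35 members and the further small and large subunit factors lie between -0.17 and -0.09 at 8 h, and the ribosomal proteins move from -0.52 to -0.05 without the 1 library.

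Markers of cell types lay on different sides of 0 in the mutant forms, a difference that was not tested. In mutants minus WT at 8 h, 11 of 12 neuronal markers were above 0 (median 0.08), 8 of 9 measured markers of astrocytes and radial glia (0.25) and 12 of 13 of dividing progenitors (0.16), while oligodendrocyte lineage markers split 4 and 4. For S40A alone, 6 of 9 astrocyte markers (median -0.05) and 8 of 13 progenitor markers (-0.06) were below 0 in S40A minus WT. The astrocyte medians were 0.41 for S133A and 0.43 for S40A-S133A, and the progenitor medians 0.12 and 0.30, with these 2 forms present in the later set alone. In mutants minus GFP the medians were -0.03 for astrocytes, 0.12 for progenitors and 0.22 for neurons, and without GFP 8 h replicate 2 they were 0.00, 0.10 and 0.11. Summed neuronal markers were at 1676 to 2099 scaled FPKM with WT, 1676 to 1921 with GFP and 1914 to 2286 in mutants. Summed astrocyte markers were at 85.7 to 196, 93.8 to 263 and 73.4 to 318, and progenitor markers at 45.9 to 108, 48.3 to 101 and 60.5 to 103. Only 1 of 10 microglial and 2 of 11 vascular markers reached the minimum level, and Cx3cr1, Csf1r, P2ry12 and Tmem119 never reached 1 FPKM, nor did Pecam1, Cldn5 and Kdr. The part of cell makeup in the members' differences was not tested.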

How the data were processed

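Messenger RNA of 22 libraries was sequenced. For each library the deposited table gives the FPKM of 24490 gene entries, estimated by the authors. CASAVA 1.7, Bowtie 0.12.2 and Cufflinks (no version) were used, per the submitters' processing notes, which also name the builds mm8 and mm10. Gene positions are mm10, counted from 1. Read assignment between near-identical genes and strand handling are not given in the sources used here.

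FPKM values were scaled by median-of-ratios factors (0.86 to 1.112), 1 FPKM was added and log2 was taken, so changes of low genes are understated. A mean of 1 FPKM or more was reached by 12118 genes. Removing 21 with a failed estimate left 12097. No libraries held identical values. Tests used limma 3.58.1 (R 4.3.3) with a mean-variance trend and Benjamini-Hochberg adjustment over all 12097 genes, two-sided, with a call at an adjusted p under 0.05. One model took the 16 libraries of 8 h, with the set as a covariate (10 residual degrees of freedom), another the 6 of 4 h (3), and a joint model all 22 (13). The fit was tested on simulated data. Python 3.11.15 with pandas 2.3.3, numpy 2.4.6 and matplotlib 3.10.9 made counts and figures.

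The members and lists were chosen with earlier results of these data known. Every library's value is given for the 5 chosen members, for members called in any comparison and, in each role, for the member with the highest mean and the one not chosen on values with the largest S40A minus WT difference at 4 h. From each further pathway list the gene farthest from 0 in mutants minus WT at 8 h is named. At 4 h, deviations of libraries from their group means correlated at 0.55 to 0.56 in all 6 pairs of the same run. Runs there thus share a deviation. Deviations of the 2 libraries of a group mirror each other, so run B repeats the values of run A and the pairs are not independent. The run numbers come from the file names, except that replicate numbers tell C1 from C2. Alternatives were no further scaling, a pseudocount of 0.1, other filters, no set term, a replicate block, single sets and leaving out each library.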

Additional observations from a re-analysis of the deposited data

Results flagged for a closer look

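In 51 groups of 4 libraries at 8 h (16 members and the members' median, with GFP, WT and S40A), 2 held a library far from the others, where chance gives about 1 in 20. Nop2 in S40A 8 h replicate 4 was at 37.8 scaled FPKM, with the other 3 at 29.8 to 30.6. Rrp1b in S40A 8 h replicate 3 was at 3.92, with the other 3 at 4.72 to 4.77.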

How the results depend on the processing

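The members' median difference kept its sign under every alternative for mutants minus WT (-0.20 to -0.12), mutants minus GFP (-0.21 to -0.12), S40A minus WT (-0.19 to -0.10), S133A minus WT (-0.22 to -0.10) and S40A-S133A minus WT. The last ran from -0.29 without S40A-S133A 8 h replicate 2 to -0.09 without S40A-S133A 8 h replicate 1, beside -0.20. The number of members called was 0 throughout, except that without S40A-S133A 8 h replicate 1 it was 1 in mutants minus WT, mutants minus GFP and S40A-S133A minus WT, so leaving out a library gave 0 to 1. That member was Rrp8 (-0.71, SE 0.103, adjusted p = 0.034 in limma, mutants minus WT), which is listed at 0 in the S40A-S133A library that remained. Medians crossed 0 for WT minus GFP at 8 h (-0.05 to 0.02), and at 4 h for WT minus GFP (-0.01 to 0.11), S40A minus GFP (-0.07 to 0.07) and S40A minus WT (-0.15 to 0.01).

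With the run as a replicate block the number of members called was 0 in every comparison, so the block changed no call. At an unadjusted p under 0.05 it gave 20 members in mutants minus WT in place of 14, and 21 in mutants minus GFP in place of 13. Of the 35 not chosen on values, 15 and 16 were lower so. The shares of all genes lower rose as well, from 1.48% to 2.99% and from 2.93% to 4.9%. At 8 h, deviations of libraries of the same run correlated at -0.04 to 0.40. Each virus had 2 libraries in a set, so each value occurs in both runs of the set and the pairs are not independent. The same holds at 4 h. The 16 of 26 pairs over 0.1 were all in the later set, so libraries there share a run deviation in part, while in the earlier set the highest was 0.05. Since not every pair at 8 h was over 0.1, the block was kept as an alternative there. At 4 h all 6 pairs were at 0.55 to 0.56, but the main 4 h model held no run term. That shared deviation therefore stays in the residual spread against which its p-values were set, so its counts at 4 h are low for that reason too. With the block, S40A minus WT at 4 h still had 0 members at an unadjusted p under 0.05. Of all genes, 0.885% were then lower in place of 0.149%. Alternatives without Rrp8 and without GFP 8 h replicate 2 were chosen after the data were seen. Between replicates the members' median varied with an SD of 0.105 at 8 h, and with 2 libraries of some groups, unknown depth and values that follow the run, differences of this size are hard to resolve.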
